A study of Homo sapiens with 18 samples.

Results

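The gene SNHG12 hosts 4 small nucleolar RNAs (snoRNAs) in its introns, listed in the deposited small RNA table under their older names ACA16, ACA44, ACA61 and HBII-420. They are 4 of the 2462 features in the table and are described here in all 18 libraries. They form 1 set because they share a host gene and because their levels in extracellular vesicles went different ways in earlier results of these data. Their vesicle values are therefore given as a description with no test, and tests are kept for the cells.

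Small RNA was sequenced from 3 genotypes of HEK293T, a human embryonic kidney cell line, all starved of serum for 24 h, with 3 libraries in each group. The vesicle groups were ATG7-/- vesicles (clone F2), ATG12-/- vesicles (clone D9) and wild type vesicles. The cell groups were ATG7-/- cells, ATG12-/- cells and wild type cells, from the same clones and the same wild type line. Each knockout was 1 clone, so clone and genotype cannot be told apart. The libraries are named biological replicates in the labels, which do not say whether these were separate cultures, and p-values measure the spread between these libraries. Vesicle libraries held 1881080 to 3382605 reads assigned to features and cell libraries 1188388 to 1804089, with no overlap. Levels are in normalised reads, the deposited unit, in which 1 read is worth 0.477 to 1.89 depending on the library. The ATG7 and ATG12 mRNAs and the spliced SNHG12 RNA were not analysed here, so neither the knockouts nor the output of the host gene could be checked. Of 8 microRNAs of blood, liver and serum, 7 were in the table. Their summed level was 181 to 263 normalised reads in ATG7-/- vesicles, 247 to 330 in ATG12-/- vesicles and 90.5 to 134 in wild type vesicles. Of the 7, miR-144-3p was listed at 0 in ATG7-/- vesicles. The sum was 1.27 to 11.4 in the cells, where miR-142-3p and miR-142-5p were listed at 0. Their part in the vesicle values below was not tested.

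SnoRNAs are guide RNAs of the nucleolus. H/ACA box snoRNAs fold into hairpins followed by short boxes. They pair with ribosomal RNA to direct the change of uridine to pseudouridine, while C/D box snoRNAs direct the methylation of ribose. Most human snoRNAs are cut out of introns after splicing, and SNHG12 is a non-coding gene best known as such a host. SnoRNAs of the same host transcript can still differ in level, since each is trimmed, bound by its own set of core proteins and degraded on its own. ATG7 is the enzyme that activates LC3 and ATG12, and ATG12 joined to ATG5 helps to attach LC3 to membrane lipids. The study asked how this LC3 conjugation machinery shapes the RNA that leaves cells in vesicles.

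The annotation places all 4 RNAs on the minus strand of chromosome 1 (GRCh38), inside SNHG12 (ENSG00000197989.14, chr1:28578538-28583132). In the annotated transcript with 6 exons and 5 introns used here, each lies in an intron of its own. ACA16 (SNORA16A) is in intron 2 at chr1:28580920-28581053. ACA44 (SNORA44) is in intron 3 at chr1:28580381-28580512. ACA61 (SNORA61) is in intron 4 at chr1:28579764-28579893, and HBII-420 (SNORD99) is in intron 5 at chr1:28578743-28578822. ACA61 begins 18 bases after the end of its upstream exon, nearer than ACA44 at 47, ACA16 at 57 and HBII-420 at 710. HBII-420 instead ends 62 bases before its downstream exon. No other snoRNA of the table that could be placed lies in SNHG12. Some SNHG12 transcripts have exons over these introns. Exons of 4 of 17 transcripts overlap ACA16, those of 4 overlap ACA44 and those of 5 overlap ACA61, in part or in whole. Reads from such a stretch would count with the snoRNA. No annotated transcript keeps HBII-420, and no gene on the plus strand overlaps any of the 4.

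**Figure D1:**
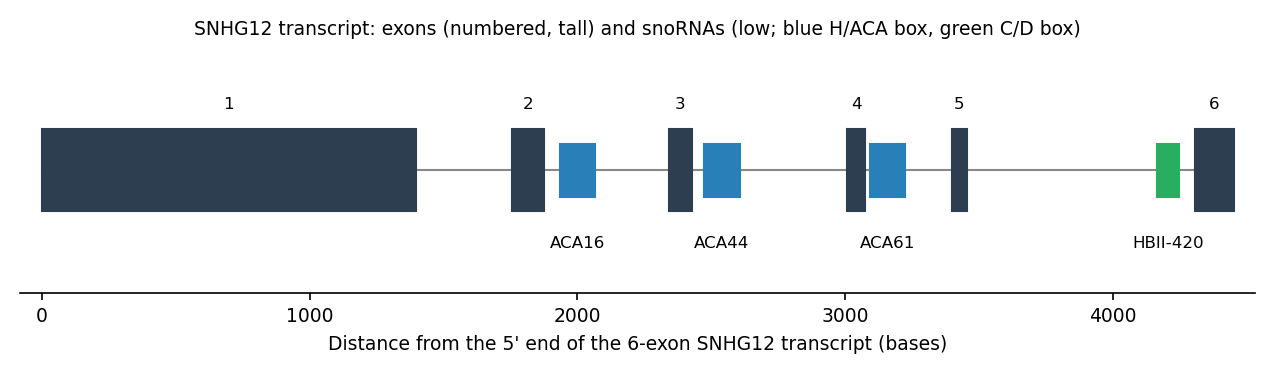
The 6-exon SNHG12 transcript drawn to scale, with the distance from its 5′ end in bases on the horizontal axis. Tall dark blocks are the 6 numbered exons, and lower blocks are the 3 H/ACA box snoRNAs (blue) and the C/D box snoRNA HBII-420 (green), each in an intron of its own.

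The sequences are shown because the 4 RNAs share a host and yet differ in class, length and boxes. They are DNA letters, 5′ to 3′ in the sense of the RNA, from the GENCODE release 29 transcripts (GRCh38, minus strand), with ACA16 trimmed at its 5′ end to the RefSeq span. Capitals mark the ANA triplet that stands 3 bases before the 3′ end of an H/ACA box RNA, and every GATGA and CTGA in HBII-420.
ACA16: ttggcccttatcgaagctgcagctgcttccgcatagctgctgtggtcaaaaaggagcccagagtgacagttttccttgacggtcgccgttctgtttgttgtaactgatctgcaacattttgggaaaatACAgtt
ACA44: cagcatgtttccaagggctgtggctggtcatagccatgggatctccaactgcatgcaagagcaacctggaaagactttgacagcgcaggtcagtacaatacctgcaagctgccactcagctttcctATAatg
ACA61: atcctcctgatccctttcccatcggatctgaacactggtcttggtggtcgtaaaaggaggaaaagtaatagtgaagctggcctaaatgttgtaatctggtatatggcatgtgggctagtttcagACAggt
HBII-420: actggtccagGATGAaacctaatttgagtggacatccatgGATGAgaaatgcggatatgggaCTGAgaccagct

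ACA16 and ACA61 end in the usual ACA, which 112 of 149 annotated SNORA transcripts (75.2%) carry at this place. ACA44 has ATA there, as do 11 of 149 (7.38%). HBII-420 holds GATGA, found in 244 of 288 SNORD transcripts (84.7%), at bases 11 and 41 of the printed sequence, and CTGA, found in 283 of 288 (98.3%), at base 63. It does not hold TGATGA, which 223 of 288 (77.4%) do. These letters were searched on the strand of the RNA, TGATGA contains GATGA, and a match is not a shown site. The 3 H/ACA box RNAs span 134, 132 and 130 bases and HBII-420 spans 80 in RefSeq, of which GENCODE holds the 74 printed. Guanine and cytosine made up 47.8% of ACA16, 50.8% of ACA44, 45.4% of ACA61 and 47.3% of HBII-420. ACA16 has a near copy, U98b (SNORA16B), with 88.1% identity, to which 2 reads were assigned over all 18 libraries. In stretches of 25 bases, ACA44 shares 14 of its 108 with another annotated snoRNA, RF00405. ACA16, ACA61 and HBII-420 share none outside SNHG12 and their own entries.

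ACA16 was highest in wild type vesicles and lowest in ATG7-/- vesicles, by fold the widest span of the 4 within vesicles. It had 10.5, 38.5 and 14.6 normalised reads in ATG7-/- vesicles, 60.7, 43.8 and 49.0 in ATG12-/- vesicles, and 460, 456 and 467 in wild type vesicles. The 3 vesicle groups did not overlap, but how common this is among all features is not given here. The lowest of these values rest on 8, 33 and 11 reads, so ACA16 in ATG7-/- vesicles is the least precise level given here, and its library 2 stood above the other 2. In cells ACA16 had 208, 155 and 182 normalised reads in ATG7-/- cells, 236, 169 and 222 in ATG12-/- cells, and 189, 182 and 241 in wild type cells. All 3 cell groups overlapped, and all lay above the knockout vesicles. They lay below wild type vesicles at the deposited scaling, an order that turned with library totals as the scaling (vesicles over cells 1.18, against -0.33).

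ACA44 was lower in vesicles than in cells of every genotype. Its level was 14.5, 22.2 and 18.6 normalised reads in ATG7-/- vesicles, 41.4, 41.1 and 39.6 in ATG12-/- vesicles, and 70.8, 74.7 and 81.7 in wild type vesicles. The order of the 3 vesicle groups was the same as for ACA16, without overlap, over a narrower span. In cells it was 305, 193 and 154 in ATG7-/- cells, 277, 239 and 268 in ATG12-/- cells, and 215, 233 and 256 in wild type cells. ATG7-/- cells were the most scattered group, with their library 1 above and their libraries 2 and 3 below all 6 other cell libraries.

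Per 100 bases of RNA, ACA61 had the most reads of the 4 in every vesicle library, and ATG12-/- vesicles held more of it than wild type vesicles. It had 410, 552 and 386 normalised reads in ATG7-/- vesicles, 4084, 3620.0 and 3881 in ATG12-/- vesicles, and 2544, 2046 and 2056 in wild type vesicles. The 3 vesicle groups did not overlap, and the order of ATG12-/- and wild type vesicles was the reverse of that for ACA16 and ACA44. In cells its level was 544, 370.1 and 296 in ATG7-/- cells, 461, 344 and 452 in ATG12-/- cells, and 366, 424 and 469 in wild type cells. Those 3 groups overlapped with each other and with ATG7-/- vesicles.

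HBII-420, the C/D box member, was lower in vesicles than in cells of every genotype, and its order among vesicles was that of ACA61. It had 63.3, 56.1 and 41.1 normalised reads in ATG7-/- vesicles, 237, 255 and 181 in ATG12-/- vesicles, and 158, 131 and 130 in wild type vesicles. At the deposited scaling no vesicle group overlapped another. As a share of all assigned reads, library 3 of ATG12-/- vesicles (96 of 2117364) lay below every wild type vesicle library. Those held 109 of 2185734, 95 of 2043493 and 89 of 1881080 reads. HBII-420 had 1026, 970.4 and 755 normalised reads in ATG7-/- cells, 720, 911 and 866 in ATG12-/- cells, and 996, 803 and 925 in wild type cells. The cell groups overlapped, and every cell library lay above every vesicle library.

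**Figure D2:**
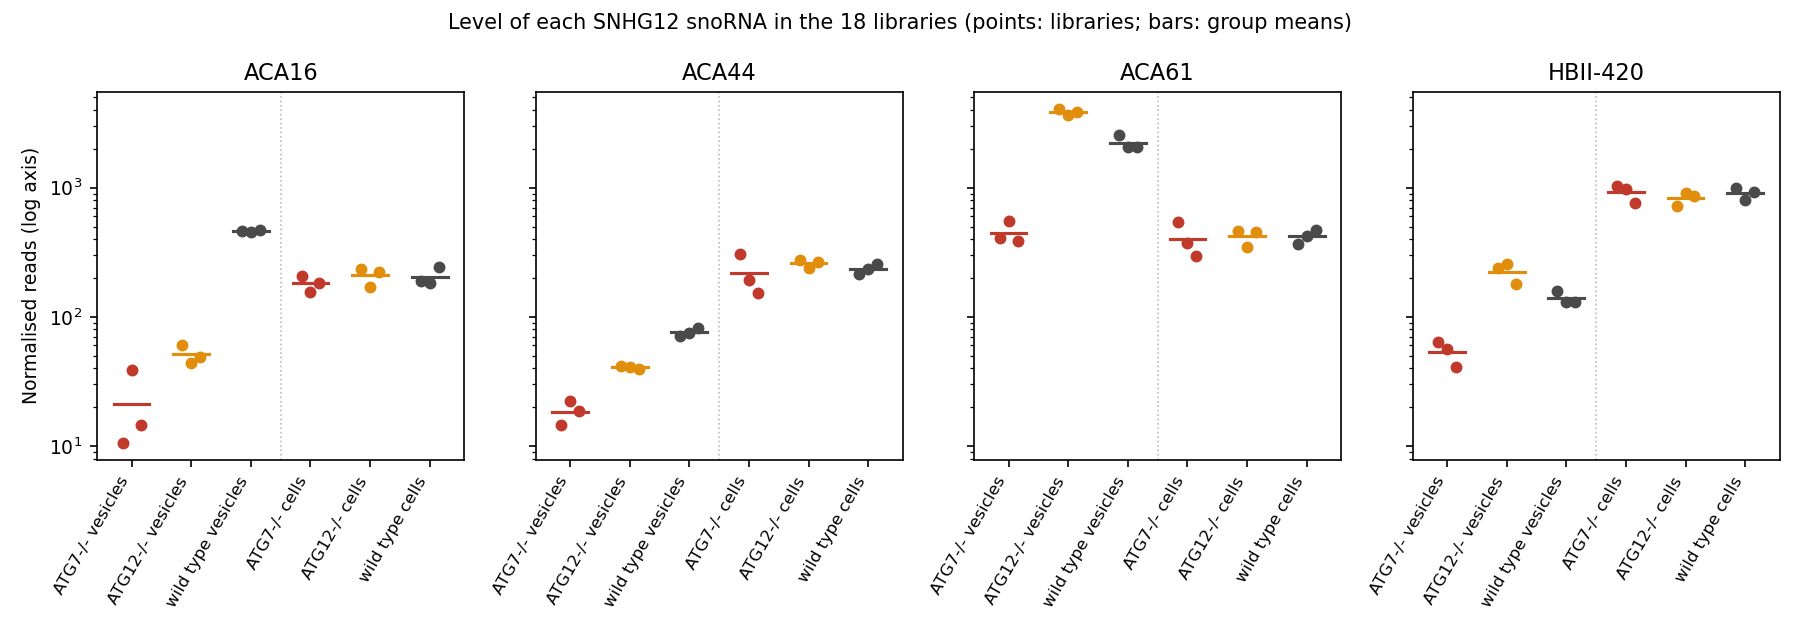
Normalised reads of each snoRNA (log axis) in the 6 groups, with 1 point per library and a bar at the group mean; vesicle groups are left of the dotted line and cell groups right of it. The cell groups of each RNA overlap, while wild type vesicles stand highest among vesicles for ACA16 and ACA44 and ATG12-/- vesicles stand highest for ACA61 and HBII-420.

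Changes are given on the scale of log2 (normalised reads + 1), knockout over wild type, with the standard error (SE) of limma's fit to the 9 vesicle libraries. All 4 RNAs passed the filter of at least 10 normalised reads in 3 libraries in every fit. Both vesicle comparisons use the same wild type libraries, and the members were chosen on these values, so no test is given. Of the 850 features tested, 62.5% were called in ATG7-/- vesicles and 43.6% in ATG12-/- vesicles. A call is an adjusted p under 0.05 in either direction. Differences between vesicle groups were thus common. The share of all features whose vesicle groups do not overlap, as described above for each member, is not given here. That separation is therefore not shown to be particular to the members.

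In ATG7-/- vesicles all 4 were lower than in wild type vesicles. The change was -4.59 (SE 0.34) for ACA16, which was thus at about 0.04 times the wild type level. Leaving out 1 library at a time, it ran from -5.11 to -4.22. The log2 SD of ACA16 was 0.93 in ATG7-/- vesicles and 0.017 in wild type vesicles, while the SE rests on a shared spread. The change was -2.31 (SE 0.15) for ACA61, -2.00 (SE 0.21) for ACA44 and -1.38 (SE 0.20) for HBII-420. The median of the 4 was -2.15, beside 0.11 over all 850 features. ACA16 was number 2 from the lowest of the 88 H/ACA box snoRNAs tested, whereas ACA61 was number 32 and ACA44 number 42 from the lowest. HBII-420 was number 68 from the lowest of 123 C/D box snoRNAs.

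In ATG12-/- vesicles the 4 parted: ACA16 and ACA44 were lower than in wild type vesicles and ACA61 and HBII-420 were higher. The change was -3.16 (SE 0.34) for ACA16 and -0.88 (SE 0.21) for ACA44. It was 0.81 (SE 0.15) for ACA61 and 0.67 (SE 0.20) for HBII-420, or 1.75 and 1.59 times the wild type level. The median of the 4 was -0.10, beside 0.05 over all features. ACA16 was number 5 from the lowest and ACA61 number 3 from the highest of the 88 H/ACA box snoRNAs. The set was chosen because its members went different ways in vesicles. Their places near both ends of that list reflect this choice and are a description. HBII-420 was number 9 from the highest of 123 C/D box snoRNAs.

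Set directly against ATG7-/- vesicles, ATG12-/- vesicles held more of each of the 4 RNAs. The difference was 3.12 (SE 0.15) for ACA61, which was the highest of all 850 features in this comparison, and 2.05 (SE 0.20) for HBII-420, number 4 from the highest of 123. It was 1.43 (SE 0.34) for ACA16 and 1.12 (SE 0.21) for ACA44. Of all 850 features, 49.9% were called between these groups, and the median difference over all features was 0.00.

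**Figure D3:**
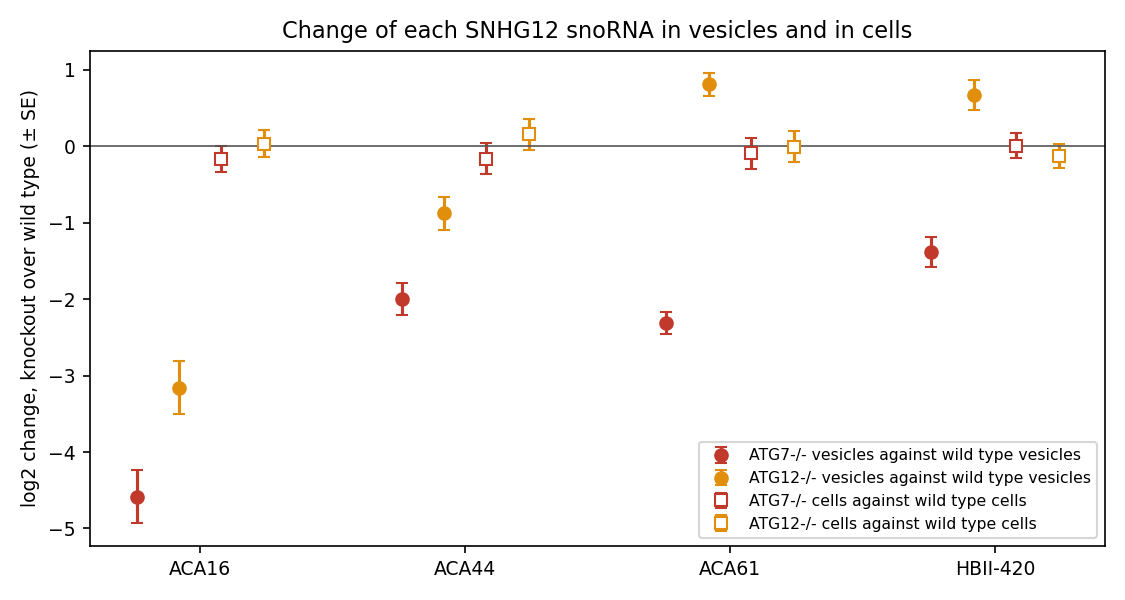
The log2 change (knockout over wild type, ± SE) of each snoRNA in vesicles (filled circles) and in cells (open squares), for ATG7-/- (red) and ATG12-/- (orange). The vesicle changes run from -4.59 to 0.81, while all 8 cell changes lie within 0.17 of 0.

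The members were chosen for their vesicle behaviour and not for a change between cell groups, so here the levels were tested. The test was limma's moderated test over the 9 cell libraries, with Benjamini-Hochberg adjustment over 853 features. Earlier results of these data were known at that choice, so these tests may not be fully independent of it. In ATG7-/- cells 0 of the 4 RNAs were called against wild type cells, where 16.8% of all features were. The change was -0.17 (SE 0.17, adjusted p = 0.520) for ACA16 and -0.17 (SE 0.20, adjusted p = 0.605) for ACA44. It was -0.09 (SE 0.20, adjusted p = 0.778) for ACA61 and 0.01 (SE 0.16, adjusted p = 0.984) for HBII-420. The 95% intervals of these changes were -0.54 to 0.20, -0.60 to 0.27, -0.53 to 0.34 and -0.33 to 0.35, in that order. Each excludes a change of the size described in ATG7-/- vesicles, although a smaller change in cells is not excluded.

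In ATG12-/- cells 0 of the 4 were called against wild type cells, beside 25.7% of all features. The change was 0.03 (SE 0.17, adjusted p = 0.904) for ACA16 and 0.15 (SE 0.20, adjusted p = 0.613) for ACA44. It was -0.01 (SE 0.20, adjusted p = 0.987) for ACA61 and -0.13 (SE 0.16, adjusted p = 0.587) for HBII-420. The 95% intervals were -0.34 to 0.40 for ACA16 and -0.44 to 0.43 for ACA61, which exclude the vesicle changes of -3.16 and 0.81 at the deposited scaling. That of ACA44 was -0.28 to 0.59 and that of HBII-420 was -0.47 to 0.21, which exclude the estimates of -0.88 and 0.67 at that scaling. The vesicle estimates have errors of their own, with 95% intervals of -1.34 to -0.42 for ACA44 and 0.24 to 1.10 for HBII-420. Those intervals lie close to the cell intervals, and the members were chosen on vesicle values, so this is no test of the difference. With library totals as the scaling, the interval of ACA61 was -0.17 to 0.62 and that of HBII-420 was -0.20 to 0.41, and these hold the vesicle changes at that scaling, 0.45 and 0.32.

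Between ATG12-/- cells and ATG7-/- cells 0 of the 4 were called, beside 20.0% of all features. The largest difference was that of ACA44, 0.32 (SE 0.20, adjusted p = 0.284), and the others were 0.20 for ACA16, 0.09 for ACA61 and -0.13 for HBII-420. Without library 1 of ATG7-/- cells, in which ACA44 was highest, the difference of ACA44 was 0.59 and limma's adjusted p was 0.0185. Over all alternatives to that fit the adjusted p ran between 0.0185 and 0.731. At an unadjusted p under 0.05, 0 of the 12 cell results passed in limma, and 0 in edgeR or DESeq2 on the recovered whole reads. When libraries were scaled on microRNAs alone, the median of all features in ATG7-/- cells moved by -0.58, to -0.67. All 4 RNAs were then called lower, with changes of -0.75, -0.75, -0.68 and -0.58. Most features tested were called at that scaling too, and 2.90% of those calls were higher, so the 4 moved with the rest.

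The difference between the vesicle change and the cell change of 1 RNA, from a fit over all 18 libraries, is again a description. For ATG7-/- it was -4.42 (SE 0.41) for ACA16, -1.83 (SE 0.29) for ACA44, -2.21 (SE 0.27) for ACA61 and -1.39 (SE 0.25) for HBII-420. For ATG12-/- it was -3.19 (SE 0.41), -1.03 (SE 0.29), 0.81 (SE 0.27) and 0.80 (SE 0.25) in the same order. With library totals as the scaling, an alternative added after the data were seen, the ATG12-/- differences were 0.23 for ACA61 and 0.21 for HBII-420, each smaller than its SE (0.24 and 0.24). In a bulk vesicle preparation, fewer vesicles that carry an RNA and less of it in each cannot be told apart.

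Vesicles were also set against the cells of the same genotype, in a fit over all 18 libraries in which 905 features were tested. Of these, 82.8% were called in ATG7-/-, 80.3% in ATG12-/- and 81.8% in wild type samples. ACA61 was 3.21 (SE 0.19) higher in ATG12-/- vesicles than in ATG12-/- cells and 2.40 (SE 0.19) higher in wild type vesicles than in wild type cells. With library totals as the scaling, under which the overall median shifted by -2.07 and -1.45, these differences were 1.11 and 0.88. In ATG7-/- samples the difference was 0.18 (SE 0.19), and it was -0.016 without library 3 of ATG7-/- cells, -0.025 with TMM scaling, -0.032 in edgeR and -1.80 with library totals as the scaling. HBII-420 was lower in vesicles in each genotype, with differences of -4.08 (SE 0.18) in ATG7-/-, -1.90 (SE 0.18) in ATG12-/- and -2.69 (SE 0.18) in wild type samples. ACA44 was lower likewise, with differences of -3.45, -2.65 and -1.62 (SE 0.20 each).

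ACA16 changed side with genotype. Its difference, vesicles over cells, was -3.24 (SE 0.29) in ATG7-/- and -2.01 (SE 0.29) in ATG12-/- samples, against 1.18 (SE 0.29) in wild type samples. The wild type value was -0.33 with library totals as the scaling, which moved the median of all features by -1.45, so its sign rests on the scaling. Relative to the C/D box snoRNAs, whose median difference was -5.35 in ATG7-/-, -4.06 in ATG12-/- and -3.56 in wild type samples, HBII-420 was not among the lowest: it was number 96, 107 and 87 from the lowest of 131. ACA61 was number 80, 89 and 85 from the lowest of 92 H/ACA box snoRNAs, whose median was -3.12, -1.84 and -0.97. With library totals as the scaling the medians of the H/ACA box list were -5.01, -3.91 and -2.45, and those of the C/D box list were -7.25, -6.13 and -5.07.

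Ratios within a library do not depend on the scaling between libraries. To compare levels between the 4 RNAs, normalised reads were divided by RNA length, and the share of each in their sum was taken. Per 100 bases, ACA61 made up 78.2% ± 1.67 of the sum in ATG7-/- vesicles, 89.5% ± 1.57 in ATG12-/- vesicles and 74.6% ± 1.83 in wild type vesicles (SD, n = 3 each). In cells it made up 17.4% ± 2.31 in ATG7-/-, 18.8% ± 3.09 in ATG12-/- and 18.1% ± 2.39 in wild type. HBII-420 held most of the sum in cells per 100 bases, with 65.6% ± 3.79, 60.5% ± 5.86 and 63.4% ± 3.97 in the same 3 genotypes. ACA61 thus had the largest share in all 3 vesicle groups and HBII-420 in all 3 cell groups. How evenly the 4 RNAs enter a library was not measured, so the shares compare reads and not molecules. Whether reads grow in number with RNA length was not measured either, so the shares depend on that division. In mean normalised reads without it, ACA61 was also highest in the vesicle groups and HBII-420 in the cell groups.

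The rest of the sum showed where genotypes differed in make-up. ACA16 took 3.38% ± 1.75 in ATG7-/- vesicles and 1.15% ± 0.131 in ATG12-/- vesicles, against 15.2% ± 1.51 in wild type vesicles, while in cells it took 7.84%, 9.11% and 8.49%. HBII-420 took 15.3% ± 3.36 in ATG7-/- vesicles, 8.46% ± 1.57 in ATG12-/- vesicles and 7.65% ± 0.0993 in wild type vesicles. ACA44 took 3.18%, 0.930% and 2.54% in those vesicles and 9.19%, 11.5% and 9.97% in ATG7-/-, ATG12-/- and wild type cells. Summed without regard to length, the 4 RNAs held 0.0143% ± 0.00228 of all assigned reads in ATG7-/- vesicles, 0.113% ± 0.0117 in ATG12-/- vesicles and 0.0993% ± 0.00323 in wild type vesicles. In cells they held 0.179% ± 0.0203, 0.199% ± 0.00982 and 0.174% ± 0.0106 of the reads (SD, n = 3 each).

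**Figure D4:**
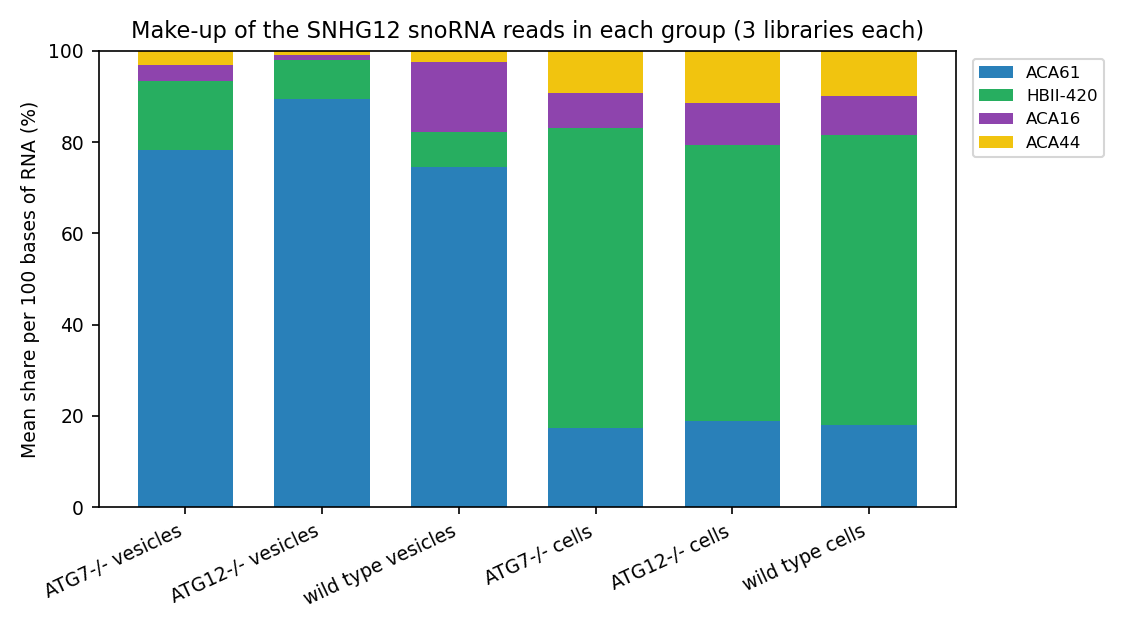
Mean share (%) of each snoRNA in the sum of the 4 levels per 100 bases, in the 6 groups of 3 libraries. ACA61 (blue) makes up 74.6% to 89.5% in vesicles and 17.4% to 18.8% in cells, and HBII-420 (green) 7.65% to 15.3% in vesicles and 60.5% to 65.6% in cells.

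The log2 ratio of each other RNA to ACA61 was tested in cells with a two-sided exact permutation test, whose smallest possible p for 3 against 3 libraries is 0.1. The 6 differences, knockout minus wild type cells, ran between -0.12 and 0.16, with p between 0.1 and 1 by the exact test and adjusted p between 0.6 and 1. The one that reached 0.1 was ACA44 to ACA61 in ATG12-/- cells, 0.16 higher than in wild type cells, with no overlap between the groups. In vesicles the same ratios are a description. The ratio of ACA16 to ACA61 differed from wild type vesicles by -2.36 in ATG7-/- vesicles and by -3.99 in ATG12-/- vesicles. For ACA44 to ACA61 the differences were 0.25 and -1.70, and for HBII-420 to ACA61 they were 0.91 and -0.13, in the same order. The differences of -0.13 for HBII-420 in ATG12-/- vesicles and 0.25 for ACA44 in ATG7-/- vesicles were smaller than the larger SD of the groups compared, 0.30 and 0.27.

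The wider snoRNA lists, chosen like the members with results known, give the setting. Of 88 H/ACA box snoRNAs tested, which include 3 of the members, 84 were called lower and 0 higher in ATG7-/- vesicles, with a median change of -1.97. In ATG12-/- vesicles 50 were called lower and 6 higher, with a median of -0.72. Of 123 C/D box snoRNAs, 104 were lower and 2 higher in ATG7-/- vesicles, and 61 were lower and 8 higher in ATG12-/- vesicles, with medians of -1.54 and -0.60. With library totals as the scaling the ATG12-/- medians were -1.07 for H/ACA and -0.94 for C/D box snoRNAs, and -0.45 for the 4 members. The direction in which ACA61 and HBII-420 stood in ATG12-/- vesicles was thus that of the smaller share of each class.

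In cells fewer H/ACA box snoRNAs were called. In ATG7-/- cells 5 of 92 H/ACA box snoRNAs were called higher and 2 lower against wild type cells, and 1 of 131 C/D box snoRNAs higher and 8 lower. In ATG12-/- cells 10 of 92 H/ACA box snoRNAs were lower and 0 higher, and 66 of 131 C/D box snoRNAs were lower and 0 higher, with medians of -0.18 (0.04 with library totals and -0.45 with microRNA factors as the scaling) and -0.50 (-0.27 and -0.77). HBII-420, at -0.13, was number 13 from the highest of those 131.

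SnoRNAs of 20 other non-coding hosts (genes named SNHG, GAS5 and ZFAS1) numbered 115 in the table, of which 46 were tested in vesicles. In ATG7-/- vesicles 38 were lower and 2 higher than in wild type vesicles, with a median change of -1.48. In ATG12-/- vesicles 20 were lower and 8 higher, with a median of -0.48 (-0.83 with library totals and -0.79 with microRNA factors as the scaling). In cells 2 were lower and 2 higher in ATG7-/-, and 17 were lower and 0 higher in ATG12-/-.

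The host genes compared here, each with at least 3 tested snoRNAs, numbered 19, protein-coding hosts included, and for each the range between its highest and lowest vesicle change was taken. In ATG12-/- vesicles SNHG12 had the widest range of the 19, 3.97 on the log2 scale from ACA16 to ACA61, beside a median range of 1.67. The next was SNHG1, with 8 snoRNAs from U25 at -2.14 to U22 at 1.66, a range of 3.79. GAS5, with 10 snoRNAs, ranged over 2.33. In ATG7-/- vesicles the range of SNHG12 was 3.20, rank 2 of the 19 after SNHG1 at 3.53, beside a median of 1.63. A host with more snoRNAs has more room for a wide range, copies such as U103 and U103B may share reads, and SNHG12 was taken up because of its spread, so its rank is a description.

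**Figure D5:**
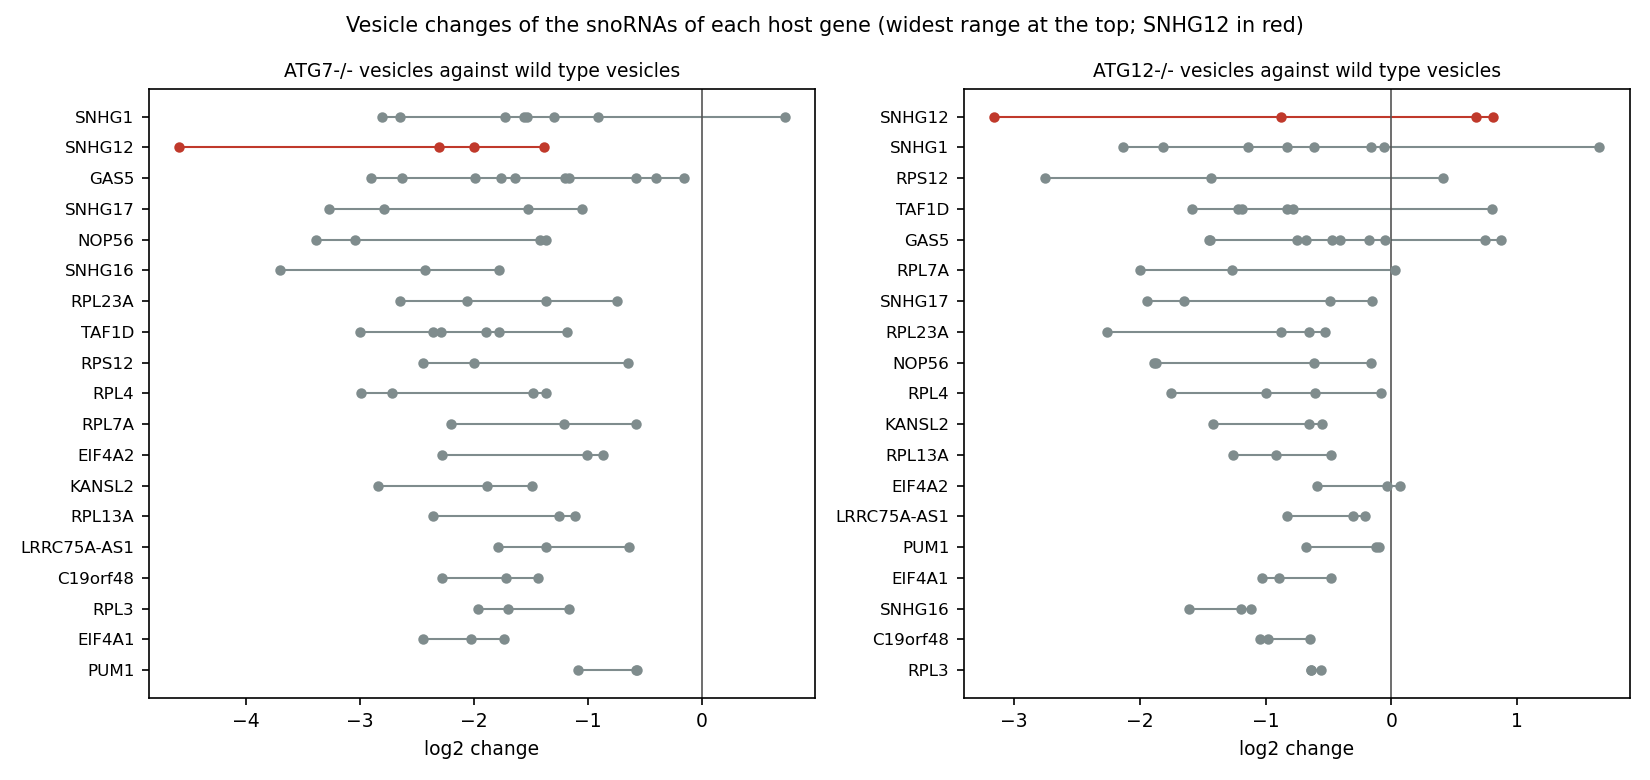
The log2 change of every tested snoRNA (points) of the 19 host genes compared, each with at least 3 of them, in ATG7-/- vesicles (left panel) and ATG12-/- vesicles (right panel), each over wild type vesicles. Lines join the lowest and highest snoRNA of a host, hosts are sorted by that range, and SNHG12 (red) has rank 2 on the left and rank 1 on the right.

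Each of the 4 RNAs had features from outside SNHG12 closer to it than any other of the 4. Nearly all features compared lay outside SNHG12, so this was likely beforehand and says little about the shared host. Likeness was the root mean square difference between the log2 means of the 6 groups, each profile centred on its own mean, over 904 other features. The nearest to ACA16 were U72 (SNORA72, in RPL30) at 0.22, ACA62 (SNORA50C, in SNHG25) at 0.25 and ACA28 (SNORA28, in EIF5) at 0.34, all H/ACA box snoRNAs. U72 averaged 71.2 ± 21.3 normalised reads in ATG7-/- vesicles, 144 ± 7.44 in ATG12-/- vesicles and 1839 ± 193 in wild type vesicles, and 747 to 887 in the cell groups. ACA16 and U72 were both below their cell levels in the vesicles of both knockouts. In wild type samples U72 was 1.20 higher in vesicles than in cells, but -0.32 with library totals as the scaling, so its direction rests on the scaling like that of ACA16.

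The nearest to ACA61 were U17b (SNORA73B, in SNHG3), ACA38 (SNORA38, in PRRC2A) and U17, at 0.46, 0.47 and 0.47. U17 is needed to cut the ribosomal RNA precursor and does not act mainly as a modification guide, and reads of U17 and U17b may not be separable. U17b averaged 911 ± 211 normalised reads in ATG7-/- vesicles, 2929 ± 169 in ATG12-/- vesicles and 1806 ± 41.8 in wild type vesicles, with 421 to 538 in the cell groups. Its order of vesicle groups was that of ACA61. ACA38 had another order, with 130.4 ± 26.9 in ATG7-/- vesicles and 671 ± 151 in ATG12-/- vesicles, against 1143 ± 80.2 in wild type vesicles.

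The nearest to ACA44 were U32A (SNORD32A, in RPL13A) at 0.14, hsa-miR-664b-5p at 0.20 and E3 at 0.23. The microRNA averaged 3.86 ± 2.37 normalised reads in ATG7-/- vesicles, 6.12 ± 1.24 in ATG12-/- vesicles and 10.5 ± 2.24 in wild type vesicles (SD, n = 3 each). In ATG7-/- vesicles 3 reads were worth 3.50 to 3.98, so its likeness to ACA44 there rests on few reads. The nearest to HBII-420 were ACA7 (SNORA7A, in RPL32) at 0.16, HBII-202 (SNORD68, in RPL13) at 0.36 and SNORA36C (in AAK1) at 0.40. ACA7, an H/ACA box snoRNA, averaged 64.3 ± 4.98 normalised reads in ATG7-/- vesicles, 203 ± 39.5 in ATG12-/- vesicles and 133 ± 22.9 in wild type vesicles, and 803 to 1063 in the cell groups, close to HBII-420 in each (SD, n = 3 each). Among themselves the nearest pair was ACA44 and HBII-420, at 0.50, and the farthest was ACA61 and HBII-420, at 2.43. That nearest pair still moved opposite ways in ATG12-/- against wild type vesicles (-0.88 and 0.67), since the measure also covers differences between vesicles and cells. In likeness among 904 features, ACA44 was number 16 from HBII-420, HBII-420 number 54 from ACA44, and ACA44 number 58 from ACA16. All other places between members ran from 193 to 727, with ACA61 number 588 from ACA16. These values share libraries and normalisation and carry no test.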

How the data were processed

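The authors deposited 1 table of 2462 small RNA features in 18 libraries. The submitters' processing notes name GRCh38 and, among tools, DESeq2, bedtools, Bowtie2 2.3 and cutadapt 2.3. The annotation, the order of steps and the treatment of reads that match several features are not given in the sources used here. Per the labels' protocols, amplification took 12 PCR cycles and single-end reads were 50 bp long. The deposited values are a scaled signal. In every library 100.0% of them were whole multiples of 1 step, within 1e-06, so whole reads were recovered.

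The main test was limma 3.58.1 (R 4.3.3) with an intensity trend on log2 (value + 1), for features reaching 10 in at least 3 fitted libraries, tested on simulated data. Adjusted p-values are Benjamini-Hochberg over all features of a comparison, and calls are under 0.05. edgeR 4.0.16 and DESeq2 1.42.0 on the recovered reads, other scalings, pseudocounts, filters, a replicate block and leaving out libraries were alternatives. Intervals for cell changes are 95% t intervals of the fit, and cover no PCR error.

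Older names were matched to RefSeq GRCh38.p14 symbols for 373 snoRNA-type names, and 26 were unmatched or shared a synonym. A host gene is a GENCODE release 29 gene around the snoRNA on its strand, where the strand is that of an annotated snoRNA there or of the only strand with a gene around it. In the comparison of host genes, 1 host gene is not reported here, and ranks are among the others. The members and lists were chosen with earlier results of these data known. Named by rule are the members and the 3 features most like each; the snoRNAs at the ends of another host's range, near copies and marker microRNAs were named after their values were seen.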

Additional observations from a re-analysis of the deposited data

Results flagged for a closer look

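ACA61 and HBII-420 stood out at the deposited scaling. Every library of ATG12-/- vesicles lay above, and every library of ATG7-/- vesicles below, the mean of wild type vesicles. As a share of assigned reads this did not hold for HBII-420. It had 96 of 2117364 reads in library 3 of ATG12-/- vesicles. Wild type vesicles had 109 of 2185734, 95 of 2043493 and 89 of 1881080, each a larger share. The difference between the knockouts, ATG12-/- minus ATG7-/- vesicles, was 3.12 for ACA61 and 2.05 for HBII-420 on the log2 scale. ACA44 stood out because every library of ATG12-/- vesicles lay below the mean of wild type vesicles while every library of ATG12-/- cells lay above that of wild type cells. These 2 cell groups overlapped, and the cell change of ACA44 was not called (0.15, SE 0.20, limma, adjusted p = 0.613). Its vesicle change minus its cell change was -1.03. The members were chosen on vesicle values, so the differences of 3.12, 2.05 and -1.03 were not tested.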

How the results depend on the processing

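No change of a member in knockout against wild type vesicles turned its direction under the alternatives run. Library totals moved the median of all features by -0.36 in ATG7-/- and -0.34 in ATG12-/- vesicles, microRNA TMM factors by -0.32 and -0.30. In ATG7-/- vesicles the changes with these 2 scalings were -2.33 and -2.32 for ACA44, -2.68 and -2.64 for ACA61, and -1.74 and -1.71 for HBII-420. In ATG12-/- vesicles they were -3.50 and -3.47 for ACA16, -1.22 and -1.19 for ACA44 (-0.99 with TMM over all features), 0.45 and 0.50 for ACA61, and 0.32 and 0.36 for HBII-420. The cause was not tested.

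In ATG7-/- cells microRNA TMM factors gave 587 called features of 853 tested, against 143. Of these calls 2.90% were higher, against 50.3%. The members then had -0.75, -0.75, -0.68 and -0.58 (limma, adjusted p = 0.0022, 0.0066, 0.013 and 0.015), where the highest adjusted p over their alternatives was 0.889, 0.960, 0.986 and 0.990. ACA44 in ATG12-/- against ATG7-/- cells had 0.63 (adjusted p = 0.0473, from 0.0185 to 0.731 over its alternatives). These factors moved the median of all features there by 0.31. Vesicles against cells turned direction for ACA61 in ATG7-/- samples (-0.032 in edgeR, -0.025 with TMM, -1.80 with library totals, and -0.016 to 0.42 leaving out 1 library, the lowest without library 3 of ATG7-/- cells) and for ACA16 in wild type samples (-0.33 with library totals).

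The vesicle change minus the cell change, with library totals (chosen after seeing the data), was -2.68 for ACA61 and -1.84 for HBII-420 in ATG7-/-, and -3.76 for ACA16, -1.60 for ACA44 (-1.22 with TMM), 0.23 for ACA61 and 0.21 for HBII-420 in ATG12-/-.

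Leaving out 1 library at a time gave 74 to 158 called features in ATG7-/- cells (88, 74 and 77 without wild type 1, 2 and 3), against 143. In ATG12-/- cells it gave 96 to 150 against 219 (119, 133 and 129 without ATG12-/- 1, 2 and 3, and 96 and 112 without wild type 1 and 2). Between ATG12-/- and ATG7-/- cells it gave 79 to 226 against 171 (86 without ATG7-/- 2, 79 and 100 without ATG12-/- 1 and 3). ACA44 in the last comparison had 0.10 to 0.59. Fewer libraries were fitted in each.

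edgeR on the recovered reads called 508, 375 and 385 features in vesicles, 140, 182 and 162 in cells and 743, 756 and 747 between vesicles and cells. Libraries with the same replicate number showed no general tendency to deviate together (r -0.22 to 0.20 over 45 pairs, across features, median 0.01). This cannot exclude a pairing by number, and the main fits used none. With the replicate block 523, 351 and 374 features were called in vesicles, 123, 194 and 159 in cells and 742, 729 and 739 between vesicles and cells, and no member was called in cells. Depth limits ACA16 in ATG7-/- vesicles, with 8 reads in 1 library.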
